A study of Mus musculus with 2 samples.

Results

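The genes described here are the chemokines and chemokine receptors of vessel walls, namely the ligands Ccl21a, Cxcl12, Ccl2 and Ccl7, the signalling receptors Ccr7 and Cxcr4, and the atypical receptors Ackr1, Ackr2, Ackr3 and Ackr4. They were chosen by symbol, which gave 11 rows for 10 symbols among the 28692 genes of the files, because Ccl21a has a second row on an unplaced scaffold. Chemokines are small secreted proteins that guide leukocytes, and signalling receptors such as Ccr7 and Cxcr4 turn them into directed movement. Atypical receptors bind chemokines without starting that movement, and instead clear, carry or retain them, so that the vessel wall shapes the gradient it presents. Ccl21 from lymphatic vessels and high endothelial venules (HEVs) draws Ccr7-bearing lymphocytes and dendritic cells into lymph and lymph nodes, and Ackr4 takes Ccl21 up.

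Single-cell RNA was counted in CD31+ cells of the mesentery of C57BL/6 pups at postnatal day 8, in 1 library of 3 pooled mice per group. Flcn iΔEC pups carried Cdh5-BAC-CreERT2 and Flcn flox/flox, so that 4-hydroxytamoxifen deleted Flcn (folliculin, a regulator of nutrient signalling) in blood and lymphatic endothelial cells alike. The labels give the same injections for both groups, 40 µg on postnatal days 2, 3.5, 5 and 6.5. The labels call the other library control and name no alleles for it. CreERT2 driven by Cdh5 is inducible in any Cdh5-expressing cell, and each library merges its 3 mice, so no spread between animals was measured. The 3′ tags counted cannot test the deletion itself, and Flcn stood at 10.2 UMIs per 1000000 UMIs (CPM) in the endothelial cells of the control library, against 9.76 CPM in those of the Flcn iΔEC library. The control library held 6814 cells and 64639756 UMIs (unique molecules), and 4459 cells with 60805779 UMIs came from the Flcn iΔEC pups. The libraries also differed in Xist, with 9 UMIs in control and 63462 in Flcn iΔEC, and in 4 Y-linked genes, with 15535 and 17 UMIs, so sex, genotype and library cannot be told apart. There is no replicate, hence no test: a value is a sum of UMIs over cells of a class, written in CPM with an exact 95% Poisson interval, and a ratio has an exact conditional 95% interval, all of which cover counting error only.

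Endothelial cells (ECs) were cells of endothelial clusters with 2 or more UMIs of Cdh5 (VE-cadherin), 554 in control and 884 in Flcn iΔEC. The members and all other chemokine system genes were left out of the clustering, so the classes were not built from the values below. The classes were lymphatic (LEC-like), with a Lyve1-high cluster of 14 control and 21 Flcn iΔEC cells, an Fgl2-high cluster of 43 and 149 and an Aqp8-high, Cldn11-expressing cluster of 21 and 129, together with lymph node sinus (sinus LEC-like, 18 and 42), HEV-like (58 and 72), venous (VEC-like, 73 and 123), capillary-like (109 and 44), arterial (AEC-like, 53 and 110) and small AEC-like cells (45 and 19), which had 3 of 7 capillary and 5 of 6 mural markers beside arterial ones. At least 2-fold over the other ECs stood 8 of 8 lymphatic markers in the Fgl2-high cluster, 7 of 7 HEV markers, 9 of 10 arterial markers in both arterial classes, 7 of 7 capillary markers and 6 of 8 sinus markers in the classes named for them, whereas the VEC-like name rests on 3 of 7 venous markers. HEV-like cells also had 7 of 7 markers of lymphoid tissue inducer (LTi) cells and 5 of 6 B cell markers at that level, so leukocyte genes are given beside their results. Markers also differed between the libraries within clusters. In the Fgl2-high cluster Lyve1 was at 295 CPM in control, against 681 CPM in Flcn iΔEC. In the Aqp8-high cluster Lyve1 was at 156 and 27.6 CPM, Prox1 at 1208 and 591 CPM and Cldn11 at 1163 and 607 CPM. The part of a different mix of cells in the cluster ratios below was not tested.

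In the deposited counts nearly all Ccl21 reads fell on 1 row, and the sequences show what that row can and cannot separate. Mouse Ccl21 is a family of near-identical copies on chromosome 4, and the serine form of the protein, made in lymphoid tissue, differs from the leucine form, made in lymphatic vessels of other tissues, by the codon shown. The coding sequence of 402 bases differed between Ccl21a and each of Ccl21b, Gm10591, Gm13304 and Gm21541 by the substitutions T84A and C194T, counted from the start of the coding sequence with the Ccl21a base first. The coding bases 174 to 214 (GRCm38, GENCODE M21 transcripts), which cross an exon junction, read as follows, with base 194 in capitals.
Ccl21a: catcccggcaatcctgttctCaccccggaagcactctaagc
Ccl21b: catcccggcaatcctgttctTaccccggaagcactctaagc
Gm21541: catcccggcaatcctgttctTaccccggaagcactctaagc
The Ccl21a stretch lies at chr4:42773523-42773657 on the minus strand, that of Ccl21b at chr4:42256028-42256162 and that of Gm21541 at chr4:41903946-41904080, both on the plus strand. The 3′ untranslated part, from which most 3′ tags come, is 393 bases long in Ccl21a, Gm21541 and Gm13304, and 3 of those bases differ. The Ccl21a row on chromosome 4 held 16547 UMIs in control and 62637 in Flcn iΔEC, whereas its scaffold row held 1 and 1, Gm21541 held 55 and 338, Gm13304 held 2 and 18, and a scaffold row of Ccl21b held 13 and 68. The chromosome 4 rows of Ccl21b and Gm10591 held 0 and 0. Their GENCODE M21 transcripts have no annotated 3′ untranslated part, so these counts do not show that the 2 copies are silent. Which copy a molecule came from is therefore uncertain, and "Ccl21a" below means the chromosome 4 row.

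**Figure D1:**
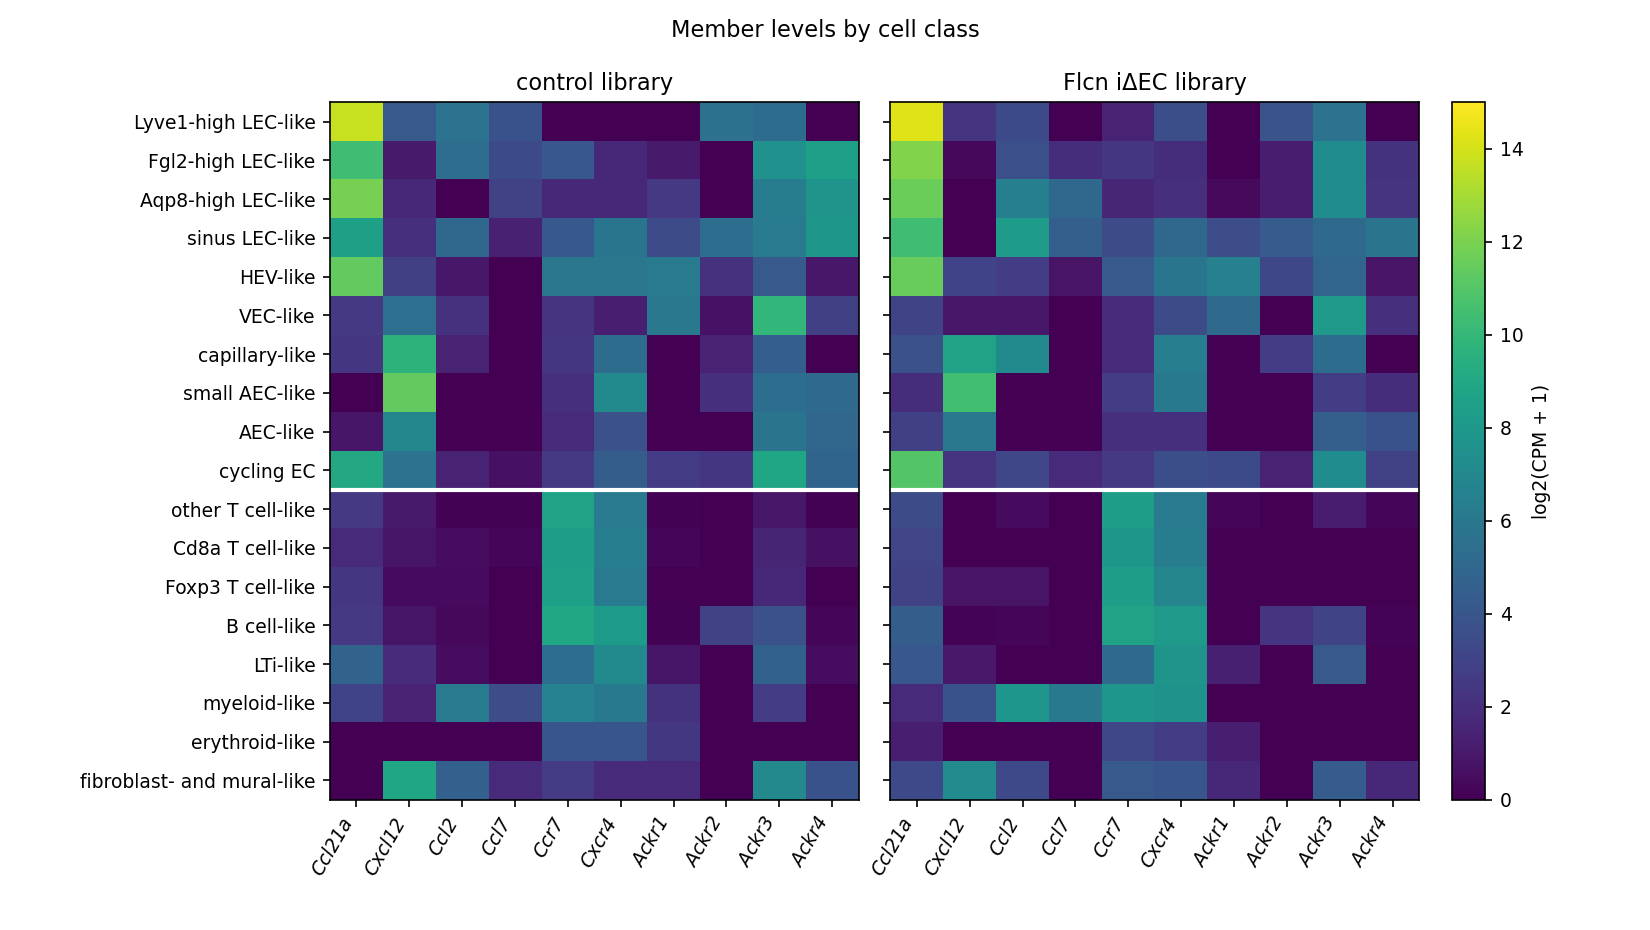
Heat map of the 10 members (columns) in 10 endothelial classes (above the white line) and 8 other classes (below it), as log2(CPM + 1), control library on the left and Flcn iΔEC library on the right. Ccl21a is brightest in lymphatic and HEV-like cells, Cxcl12 in small AEC-like and capillary-like cells, Ackr3 in VEC-like cells, and Ccr7 in lymphocytes.

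The 2 libraries were compared class by class for genes with 50 or more counts over both. The median log2 ratio of all genes compared was -0.21 in LEC-like cells and between -0.1 and 0.0 in the other classes. Of 28 member and class pairs that reached 50 counts, 4 stood 2-fold or more higher and 10 stood 2-fold or more lower in Flcn iΔEC. In LEC-like cells 0 of 5 members were higher, against 3.72% of 9622 genes, and 1 was lower (Ackr4), against 6.83%. In sinus LEC-like cells 2 of 6 members were higher (Ccl21a, Ccl2), against 2.93% of 5625 genes, and 2 were lower (Ackr2, Ackr4), against 4.14%. In HEV-like cells 0 of 5 were higher, against 2.59% of 9382 genes, and 1 was lower (Ccr7), against 1.73%. In VEC-like cells 0 of 3 were higher, against 3.26% of 8161 genes, and 2 were lower (Cxcl12, Ackr3), against 4.52%. In capillary-like cells 2 of 4 were higher (Ccl2, Cxcr4), against 2.68% of 5524 genes, and 1 was lower (Cxcl12), against 2.46%. In small AEC-like cells 0 of 2 were higher, against 2.68% of 3514 genes, and 1 was lower (Cxcr4), against 4.84%. In AEC-like cells 0 of 3 were higher, against 2.61% of 7329 genes, and 2 were lower (Ackr3, Ackr4), against 2.62%. Those that rest on few cells are named with the member.

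**Figure D2:**
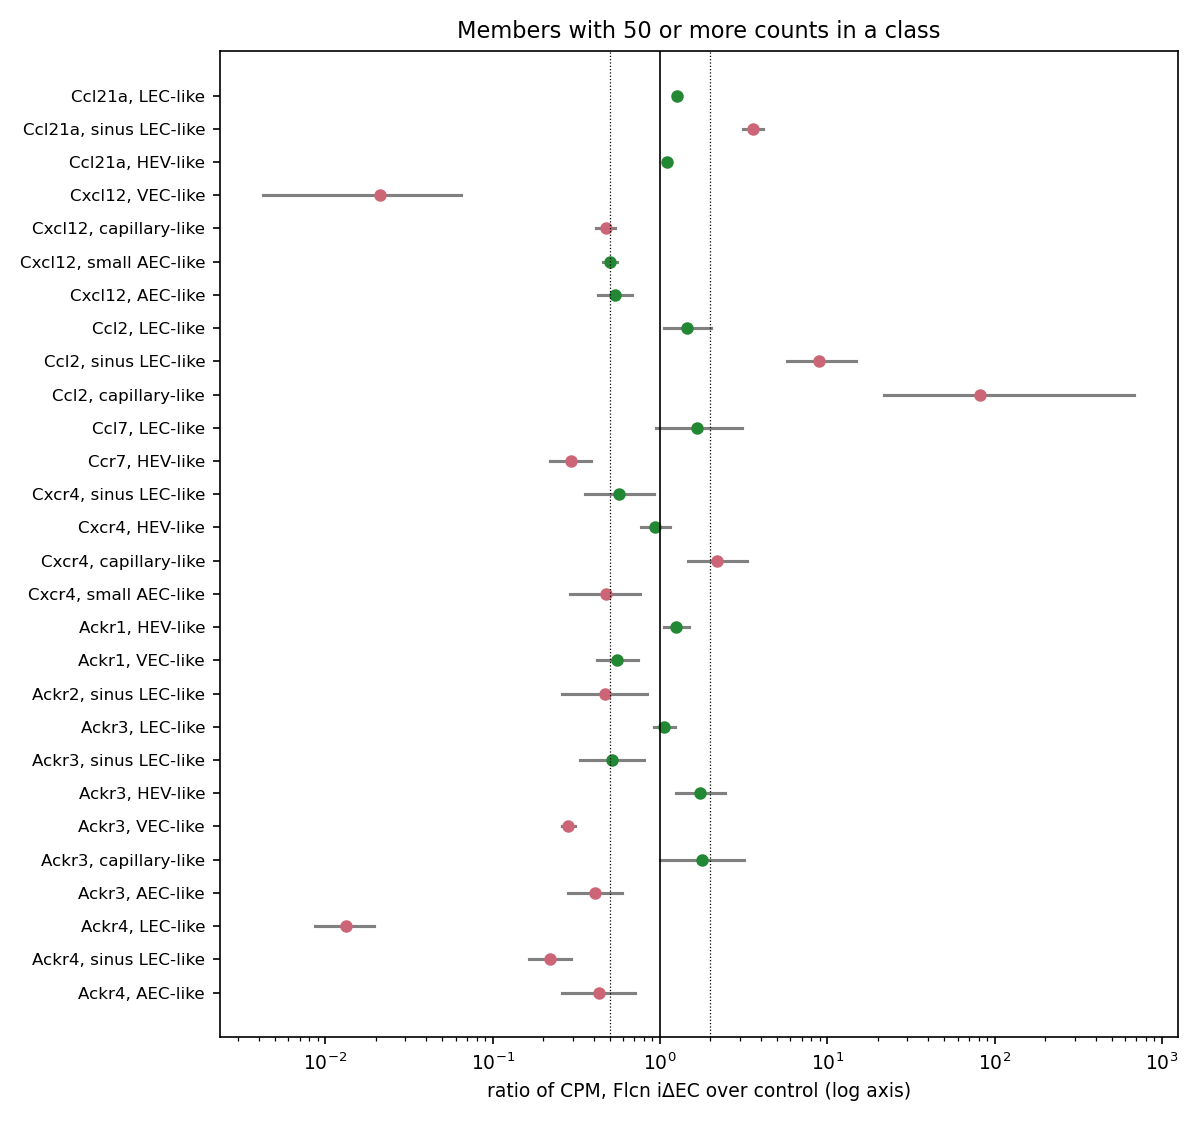
Ratio of CPM, Flcn iΔEC over control, for the 28 member and class pairs with 50 or more counts, on a log axis with exact 95% intervals (counting error only). Red points lie 2-fold or more from 1 (dotted lines at 0.5 and 2), green points within; Ackr4 in LEC-like cells lies lowest, at 0.0133, and Ccl2 in capillary-like cells highest, at 81.1.

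Ccl21a, the ligand of Ccr7, was carried by lymphatic and HEV-like cells in both libraries. In the Lyve1-high LEC-like cluster it stood at 13656 CPM (95% interval 13185 to 14139) in control, against 19879 CPM (19503 to 20260) in Flcn iΔEC, and all 14 and all 21 cells had a UMI. HEV-like cells had 2715 CPM (2658 to 2773) and 2981 CPM (2927 to 3035), a ratio of 1.10 (1.07 to 1.13). The ratio was 1.46 (1.40 to 1.52) in the Lyve1-high cluster. In HEV-like cells with no UMI of Ptprc (CD45, on all leukocytes), 10 in control and 15 in Flcn iΔEC, Ccl21a was at 1552 and 3831 CPM, a ratio of 2.47, against 2841 and 2838 CPM in those with Ptprc.
In the Fgl2-high cluster Ccl21a was at 1364 CPM in control, against 4532 CPM in Flcn iΔEC, a ratio of 3.32 (3.13 to 3.53). Lyve1 was at 295 and 681 CPM in the same cluster, and the part of the mix of cells was not tested. In sinus LEC-like cells Ccl21a was at 375 CPM and 1340 CPM, a ratio of 3.57 (3.11 to 4.11). In the same sinus cells the 7 LTi markers summed to 1419 CPM in control, against 620 CPM in Flcn iΔEC, and the part of leukocyte RNA was not tested. In sinus cells with no Ptprc UMI (7 in control, 26 in Flcn iΔEC) Ccl21a was at 821 and 2591 CPM, whereas in those with Ptprc (11 and 16) it was at 246 and 182 CPM, so the higher value in Flcn iΔEC was not found in the latter. In the Aqp8-high cluster the order was the other way, with 3887 CPM in control, against 3176 CPM in Flcn iΔEC, but 1279 of the 1721 control counts lay in 1 cell and 391 in another. The median cell of that cluster had 0 UMIs in control and 16.0 in Flcn iΔEC, and the share of cells with a UMI was 38.1% (8 of 21) and 75.2% (97 of 129).
Depth differs between the libraries (a median of 14606.5 UMIs per LEC-like cell in control and 23373 in Flcn iΔEC), so each cell was also thinned to 2000 UMIs. The share with a Ccl21a UMI was then 25.6% (13.5% to 41.2%, exact Clopper-Pearson) and 53.7% (45.3% to 61.9%) in the Fgl2-high cluster, and in the Aqp8-high cluster it was found in 4 of 21 cells (5.45% to 41.9%) and in 76 of 129 cells (58.9%, 49.9% to 67.5%). In the T cell-like cluster with neither Cd8a nor Foxp3 among its leading genes, which should lack the gene, it was 1.08% in control and 1.59% in Flcn iΔEC (3.00% and 7.16% unthinned, at medians of 7228 and 7447 UMIs). In sinus LEC-like cells the thinned shares were 27.8% (9.69% to 53.5%) and 38.1% (23.6% to 54.4%), so these intervals overlapped. The intervals of shares run over the cells of 1 library each, cover counting error only and are no test of the groups.
Blood vessel cells outside HEVs stayed near the level of T cells, which was 4.59 CPM in control, against 10.2 CPM in Flcn iΔEC. VEC-like cells had 4.72 and 7.53 CPM, capillary-like cells 4.23 and 12.1 CPM, and AEC-like cells 0.878 and 6.22 CPM. B cell-like cells, too, had 4.64 and 20.4 CPM, and 111 of their 236 counts in Flcn iΔEC lay in 1 cell. Free RNA in the droplets can give single UMIs in any cell, which was not tested here, and levels in this range are read as background.

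**Figure D3:**
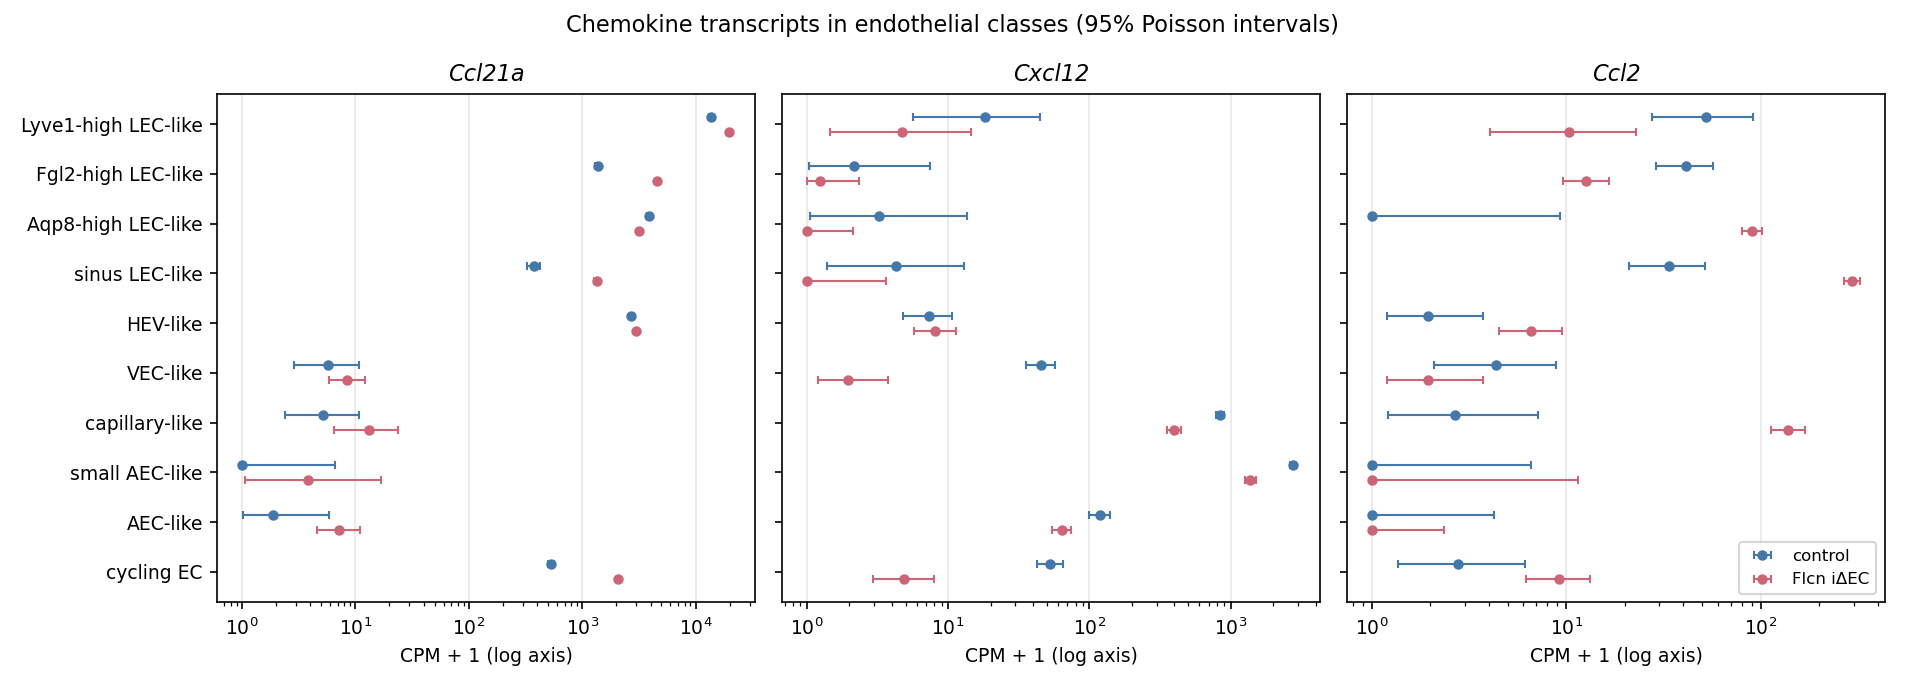
Levels of Ccl21a, Cxcl12 and Ccl2 in 10 endothelial classes, as CPM + 1 on a log axis, control in blue and Flcn iΔEC in red, with exact 95% Poisson intervals from summed counts. Ccl21a separates lymphatic and HEV-like cells from other classes, Cxcl12 peaks in small AEC-like cells, and Ccl2 reaches 295 CPM in the sinus LEC-like class of Flcn iΔEC.

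Cxcl12, the ligand of Cxcr4 and Ackr3, was the chemokine of small arteries and capillaries, and was lower there in the Flcn iΔEC library. Small AEC-like cells had 2749 CPM (2624 to 2879) in control, against 1379 CPM (1259 to 1508) in Flcn iΔEC, a ratio of 0.502 (0.453 to 0.555). Nearly every one of these cells carried it, 44 of 45 and 19 of 19. Capillary-like cells had 843 CPM (791 to 897) and 399 CPM (355 to 447), a ratio of 0.473 (0.414 to 0.539), with a UMI in 61 of 109 and 18 of 44 cells.
AEC-like cells had 118 CPM and 62.9 CPM, a ratio of 0.535 (0.424 to 0.675). The 3 ratios were thus alike in size, although the capillary-like ratio was 1.13 when the libraries were clustered without integration, which gives other capillary-like cells. In Flcn iΔEC 136 of the 296 capillary-like counts lay in 1 cell, and the ratio was 0.289 without the highest cell of each library. After thinning to 2000 UMIs the share of cells with a UMI was 91.1% and 94.7% in small AEC-like, and 39.4% (41 of 104) and 18.6% (8 of 43) in capillary-like cells, against 0.342% in control and 0 of 692 in Flcn iΔEC cells of the T cell-like cluster above, the latter allowing up to 0.434%.
In VEC-like cells the 66 control and 3 Flcn iΔEC counts gave a ratio of 0.0212 (0.00425 to 0.0646), but 60 of the 66 lay in 1 cell, and without the highest cells the ratio was 0.151. LEC-like cells held 6 and 3 counts. Of the classes outside the endothelium only the fibroblast- and mural-like cells were above 20 CPM in either library, at 466 CPM (25 cells) in control, against 149 CPM (28 cells) in Flcn iΔEC.

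Ccl2 and Ccl7, neighbouring genes on chromosome 11 whose proteins recruit monocytes, had most of their counts in few cells in several classes. Sinus LEC-like cells had 20 counts of Ccl2 in control (32.9 CPM, 20.1 to 50.8) and 415 in Flcn iΔEC (295 CPM, 267 to 324), a ratio of 8.95 (5.72 to 14.8). The control counts were spread over 10 of 18 cells with at most 6 in a cell, whereas in Flcn iΔEC 1 cell held 219 and the next 75, and 17 of 42 cells had any. Without the highest cell of each library the ratio was 5.87. After thinning 0 of 18 control cells (up to 18.5%) and 4 of 42 Flcn iΔEC cells (2.66% to 22.6%) kept a UMI, so these intervals overlapped. Ccl2 was at 73.3 and 560 CPM in sinus cells with no Ptprc UMI and at 21.2 and 49.2 CPM in those with it. The part of leukocyte RNA was not tested.
In capillary-like cells the 102 Flcn iΔEC counts lay in 3 cells, with 51, 50 and 1, against 2 counts in control, and the ratio of 81.1 (21.9 to 679) describes those few cells. In the Aqp8-high cluster the Flcn iΔEC library had 298 counts of Ccl2 in 6 of 129 cells, 208 of them in 1 cell, against 0 counts in 21 control cells, which is 13.2-fold when the control is set to 3 counts, with an exact lower limit of 10.7 for the ratio. That value, too, describes few cells. In the Fgl2-high cluster the direction was the other way, with 40.2 CPM in control, against 11.7 CPM in Flcn iΔEC, a ratio of 0.290 (0.184 to 0.463). The 35 control counts lay in 9 of 43 cells, 12 of them in 1 cell, and the 48 Flcn iΔEC counts in 22 of 149. The intervals of these shares of cells overlapped (10.0% to 36.0% and 9.49% to 21.5%). Over the 3 LEC-like clusters Ccl2 was at 30.4 CPM and 44.0 CPM, a ratio of 1.45 (1.06 to 2.01) that was 0.788 without the highest cell of each library. 1 control cell in the unnamed endothelial clusters with lymphocyte genes held 428 counts.
Ccl7 reached 32.1 CPM in the Aqp8-high cluster of Flcn iΔEC, with 91 of 107 counts in 1 cell, and 6.78 CPM (3 counts) in control. In sinus LEC-like cells it had 1 count in control and 32 in Flcn iΔEC (1.65 and 22.7 CPM), a ratio of 13.8 (2.31 to 562), but 21 of the 32 lay in 1 cell and 5 of 42 cells had any. Of 48 lymphatic cells with a Ccl2 UMI in Flcn iΔEC, sinus cells included, 22.9% also had Ccl7, against 3.07% of the 293 without, whereas in control it was 9.09% of 22 and 10.8% of 74. Cells with Ccl2 were deeper (medians of 30325.5 and 23324 UMIs in Flcn iΔEC), and the part of depth was not tested. Outside the endothelium Ccl2 was found in myeloid-like cells, at 70.8 CPM and 239 CPM. Ccl7 was at 10.9 and 64.9 CPM there, from 6 counts in 3 of 94 cells and 25 counts in 3 of 56 cells.

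Ccr7, the receptor that takes naive lymphocytes and dendritic cells along Ccl21, was highest in lymphocytes in these libraries. B cell-like cells had 495 CPM in control, against 392 CPM in Flcn iΔEC, and 3 T cell-like clusters ranged from 324 to 398 CPM and from 247 to 340 CPM. LEC-like cells had 9.70 CPM (5.43 to 16.0) and 3.13 CPM (2.03 to 4.62), and fibroblast- and mural-like cells 5.09 and 17.5 CPM. Myeloid-like cells had 98.0 CPM in control, against 239 CPM in Flcn iΔEC, where 69 of 92 counts lay in 1 cell.
Among the named endothelial classes the highest level was in HEV-like cells, with 59.9 CPM (51.7 to 69.1) in control, against 17.5 CPM (13.6 to 22.2) in Flcn iΔEC, a ratio of 0.293 (0.219 to 0.387). Some leukocyte genes were lower too, whereas LTi markers were not. Ptprc was at 161 CPM and 87.1 CPM in these cells, 6 T cell markers (all detected in both) summed to 93.5 and 54.9 CPM, and 6 B cell markers to 623 and 370 CPM, while 7 LTi markers summed to 1137 and 1138 CPM. In the HEV-like cells with no Ptprc UMI Ccr7 had 6 and 4 counts (19.3 and 7.08 CPM), against 64.3 and 19.3 CPM in those with Ptprc. The B cell markers also summed to 955 CPM (5 of 6 detected) and 560 CPM (2 of 6 detected) in small AEC-like cells. In capillary-like cells they summed to 549 and 319 CPM (5 of 6 in both). Ptprc was at most 8.53 CPM in both classes, so these sums are not read as B cell RNA. VEC-like (214 and 106 CPM) and AEC-like cells (207 and 146 CPM) had lower sums too. Sinus LEC-like (88.9 and 172 CPM) and LEC-like cells (208 and 255 CPM) had higher ones. A lower sum was thus not particular to HEV-like cells, nor found in every class. The part of leukocyte RNA in the Ccr7 difference was not tested.

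Cxcr4, the signalling receptor of Cxcl12, was shared by leukocytes and small vessels. Small AEC-like cells had 137 CPM (110 to 168) in control, against 65.4 CPM (41.5 to 98.1) in Flcn iΔEC, a ratio of 0.478 (0.288 to 0.762). Capillary-like cells moved the other way, from 38.1 CPM (27.8 to 51.0) to 83.5 CPM (64.0 to 107), a ratio of 2.19 (1.47 to 3.29), which was 1.96 without the highest cell of each library and 1.10 when the Cdh5 minimum was dropped. Both classes were poor in Ptprc, at 7.61 and 8.53 CPM in small AEC-like and 5.93 and 8.08 CPM in capillary-like cells, and in cells with no Ptprc UMI Cxcr4 was at 147 and 72.6 CPM and at 40.3 and 88.3 CPM.
HEV-like cells had 60.6 CPM and 56.7 CPM. The HEV-like cells with no Ptprc UMI had 19.3 CPM (6 counts in 10 cells) and 15.9 CPM (9 counts in 15 cells). They were shallower, with medians of 24570 and 35750 UMIs, against 48258 and 50710 in those with Ptprc. Sinus LEC-like cells had 56.0 and 31.9 CPM, with 0 counts in 7 control cells that had no Ptprc UMI and 5 counts in 26 such Flcn iΔEC cells. LEC-like cells had 3 and 29 counts (1.94 and 3.63 CPM), and VEC-like cells 2 and 32 (1.35 and 10.0 CPM).
Among leukocytes Cxcr4 was at 283 and 267 CPM in B cell-like and 143 and 212 CPM in LTi-like cells. Small AEC-like and capillary-like cells with a Cxcr4 UMI also had a Cxcl12 UMI in 80.4% of 51 cells in control and 65.5% of 29 in Flcn iΔEC, against 62.1% of 103 and 52.9% of 34 cells without Cxcr4, and were deeper (medians of 11266 against 8226 UMIs in control, and 19035 against 10507.5 in Flcn iΔEC). The level of Cxcl12 was 2004 CPM in cells with Cxcr4 and 1130 CPM in those without in control, and 654 and 823 CPM in Flcn iΔEC, so the order was opposite. These values pool both classes, which differ in the level of both genes.

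**Figure D4:**
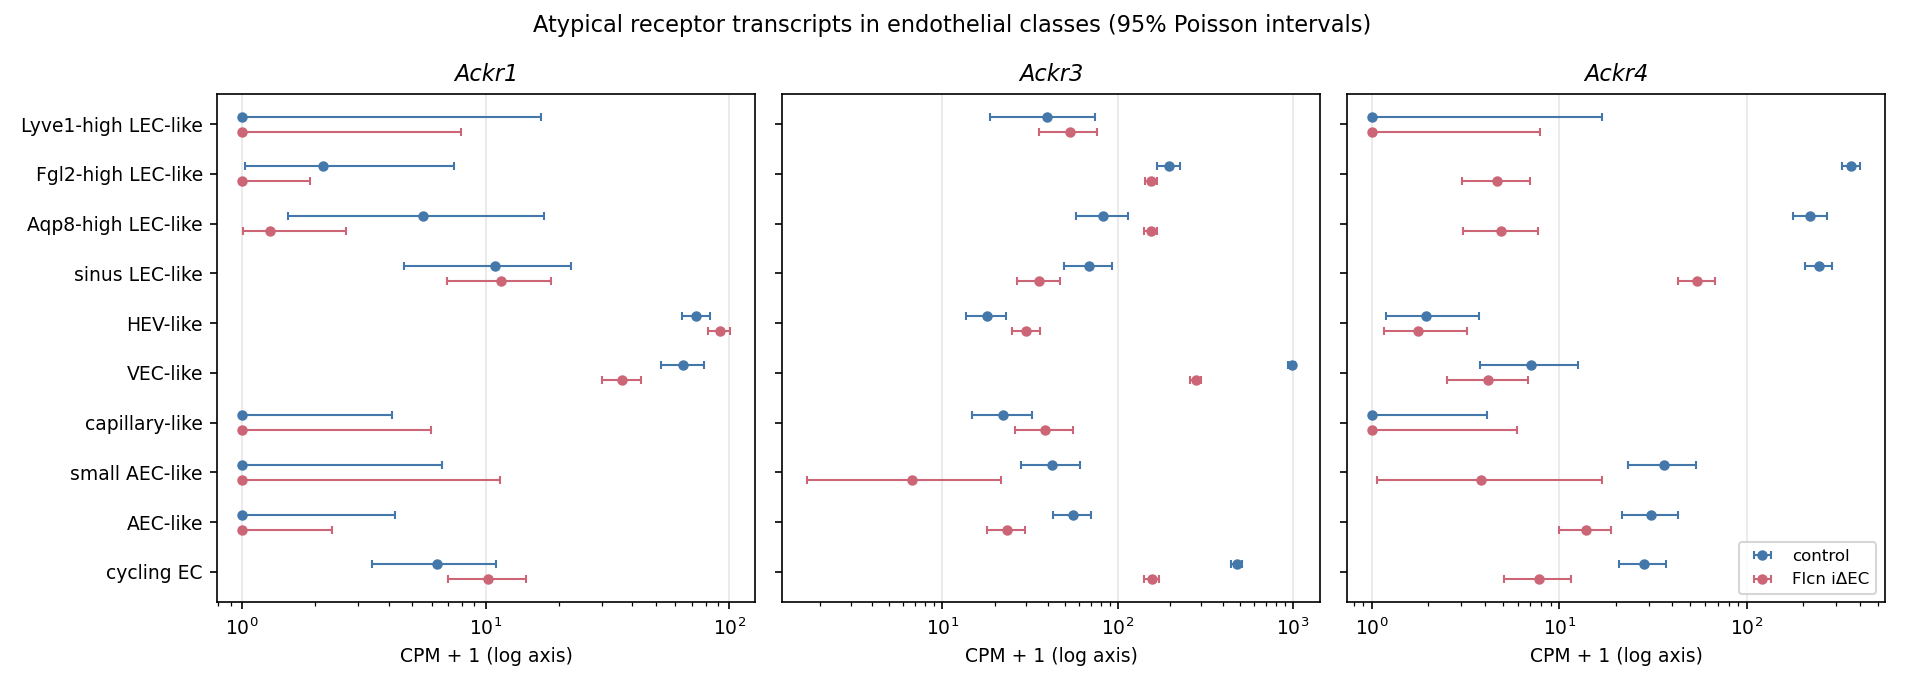
Levels of Ackr1, Ackr3 and Ackr4 in 10 endothelial classes, as CPM + 1 on a log axis, control in blue and Flcn iΔEC in red, with exact 95% Poisson intervals from summed counts. Ackr4 lies apart between the libraries in the Fgl2-high, Aqp8-high and sinus LEC-like classes and Ackr3 in VEC-like cells, whereas Ackr1 is highest in HEV-like and VEC-like cells.

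Ackr4, a scavenger of Ccl19, Ccl21 and Ccl25, was the member with the lowest ratio in lymphatic cells. LEC-like cells had 409 counts in control (265 CPM, 239 to 291) and 28 in Flcn iΔEC (3.51 CPM, 2.33 to 5.07), a ratio of 0.0133 (0.00870 to 0.0195). A UMI was found in 31 of 78 control and 9 of 299 Flcn iΔEC cells, although the latter were deeper. After thinning the shares were 21.8% (13.2% to 32.6%) and 0.669% (0.0811% to 2.40%), against 0 of 1754 and 0 of 692 T cells, which allow up to 0.171% and 0.434%.
The difference was found in both clusters that carried the gene, whose markers also differed between the libraries as given above. The Fgl2-high cluster had 359 CPM (24 of 43 cells) in control, against 3.65 CPM (4 of 149 cells) in Flcn iΔEC, and the Aqp8-high cluster 217 CPM (7 of 21 cells) and 3.90 CPM (5 of 129 cells). The Lyve1-high cluster had 0 counts in either library, so Ackr4 was not detectable at this depth (floors of 12.9 and 5.60 CPM for 3 counts) in the cluster where Ccl21a was highest. With the 3 clusters weighted equally the ratio was 0.0131, and over the other alternatives it ranged from 0.00902 to 0.0153.
Sinus LEC-like cells had 242 CPM (204 to 284; 7 of 18 cells) in control, against 53.2 CPM (41.9 to 66.7; 7 of 42 cells) in Flcn iΔEC, a ratio of 0.220 (0.164 to 0.293). In Flcn iΔEC 45 of the 75 counts lay in 1 cell, and without the highest cell of each library the ratio was 0.124. LTi markers were also lower in these cells (1419 and 620 CPM), and Ackr4 was at 432 and 100 CPM in those with no Ptprc UMI and at 187 and 9.57 CPM in those with it. In blood vessels Ackr4 was a low-level arterial gene, with 29.8 CPM (20 of 53 cells) and 12.8 CPM (25 of 110 cells) in AEC-like cells, a ratio of 0.429 (0.260 to 0.709). Small AEC-like cells had 23 and 1 counts (35.0 and 2.84 CPM) and capillary-like cells 0 and 0. The unnamed endothelial cluster found only in Flcn iΔEC (46 cells), which had Prox1 at 507 CPM and also hemoglobin genes, had no Ackr4 count.

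**Figure D5:**
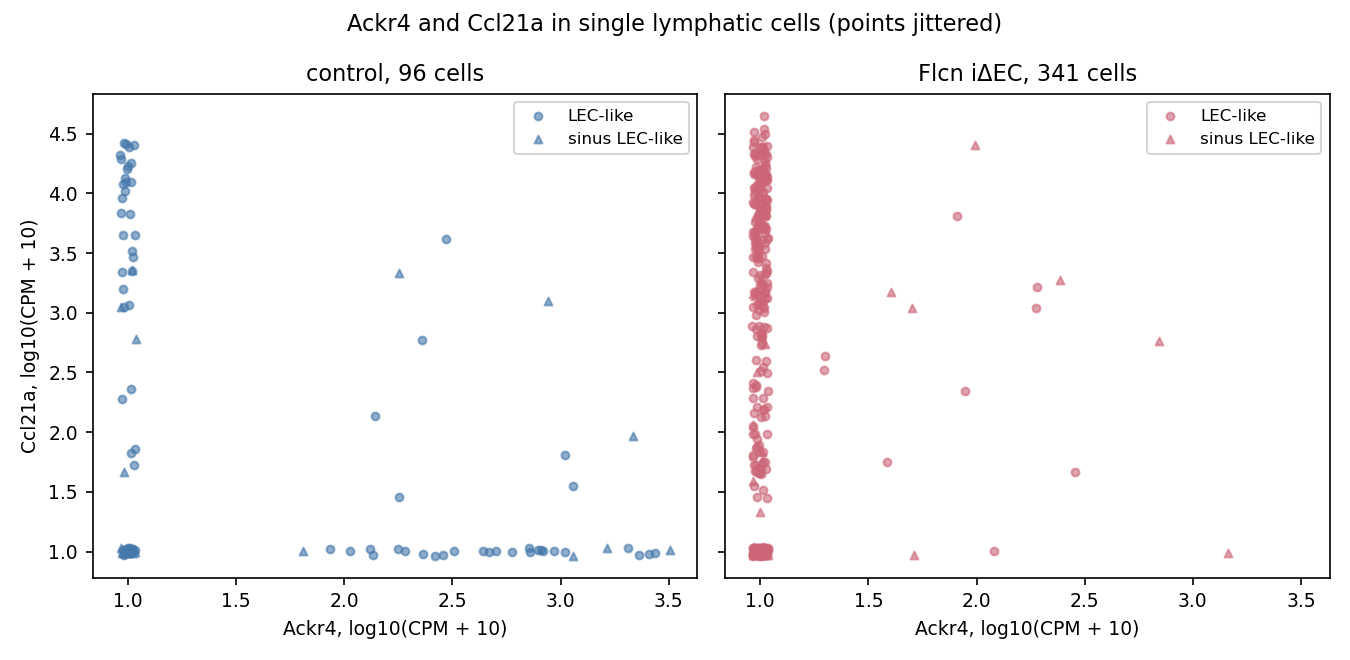
Ackr4 against Ccl21a in single lymphatic cells, both as log10(CPM + 10), 96 control cells on the left and 341 Flcn iΔEC cells on the right, circles for LEC-like and triangles for sinus LEC-like cells, points jittered. In control 38 of 96 cells lie away from the left edge, where Ackr4 is 0, and in Flcn iΔEC 16 of 341.

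In single lymphatic cells of the control library, Ackr4 and the chemokine it scavenges were mostly in different cells. Of 96 control cells, LEC-like and sinus LEC-like together, 38 had an Ackr4 UMI, and 4 of these (10.5%) had 10 or more Ccl21a UMIs, against 27 of the 58 (46.6%) without Ackr4. Ccl21a was at 212 CPM in the former and 4519 CPM in the latter, and their median depths were alike (15845.5 and 16700.5 UMIs). In Flcn iΔEC 16 of 341 cells had Ackr4, and 11 of these (68.8%) had 10 or more Ccl21a UMIs, against 56.3% of 325, with Ccl21a at 1800 and 4639 CPM. The cells come from 4 clusters, among them the Lyve1-high cluster with no Ackr4. In control that cluster held 3176 of the 6085 Ccl21a counts of LEC-like cells, and single Aqp8-high cells held 1279 and 391. The part of these cells in the contrast was not tested.

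Ackr3, a scavenger of Cxcl12, was highest in VEC-like cells in both libraries, and its ratios differed between classes, a difference that was not tested. VEC-like cells had 979 CPM (929 to 1030) in control, against 277 CPM (259 to 296) in Flcn iΔEC, a ratio of 0.283 (0.260 to 0.308). A UMI was found in 63 of 73 and 98 of 123 cells, and after thinning in 68.5% (56.6% to 78.9%) and 32.8% (24.6% to 41.9%), against 0.114% and 0.145% of the T cells. Prox1 (the transcription factor of lymphatic identity) was at 50.6 and 154 CPM in the same VEC-like cells. Without integration the VEC-like cluster held too few Flcn iΔEC cells for a value.
LEC-like cells had 138 CPM (120 to 158) and 147 CPM (139 to 156), a ratio of 1.06 (0.918 to 1.23). This pools clusters whose ratios lay on either side of 1, since the Fgl2-high cluster had 194 and 154 CPM, a ratio of 0.794 (0.669 to 0.947), and the Aqp8-high cluster 81.3 and 154 CPM, a ratio of 1.89 (1.35 to 2.73). The Lyve1-high cluster had 38.7 and 52.3 CPM, in control below the level of AEC-like cells. AEC-like cells had 54.4 and 22.3 CPM, a ratio of 0.410 (0.283 to 0.593), and sinus LEC-like cells 67.5 and 34.8 CPM, a ratio of 0.515 from 41 and 49 counts. HEV-like cells had 16.9 and 29.2 CPM, a ratio of 1.72 (1.24 to 2.43) that was 0.317 without integration, and capillary-like cells had 21.2 and 37.7 CPM. Cycling ECs had 476 and 155 CPM, with Prox1 at 92.9 and 351 CPM and Cldn11 at 48.2 and 200 CPM. The part of the mix of vessel types was not tested. LTi-like cells, at 24.2 and 17.0 CPM, and fibroblast- and mural-like cells, at 135 and 19.7 CPM, had it outside the endothelium.

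Ackr1 (the Duffy antigen receptor, which carries chemokines across venules) marked HEV-like and VEC-like cells. HEV-like cells had 72.2 CPM (63.1 to 82.1; 36 of 58 cells) in control, against 90.2 CPM (48 of 72 cells) in Flcn iΔEC, a ratio of 1.25 (1.06 to 1.48). In the HEV-like cells with no Ptprc UMI it was at 67.6 and 188 CPM, a ratio of 2.77, against 72.7 and 73.9 CPM in those with Ptprc. VEC-like cells had 63.4 CPM (51.2 to 77.6; 26 of 73 cells) and 35.2 CPM (28.9 to 42.3; 32 of 123 cells), a ratio of 0.555 (0.418 to 0.737). Capillary-like, small AEC-like and AEC-like cells had 0 counts in both libraries, and the 3 LEC-like clusters had 3 and 1. Erythroid-like cells had 2 and 1 counts.
Ackr2, a scavenger of inflammatory CC chemokines such as Ccl2 and Ccl7, was sparse. Lyve1-high LEC-like cells had 11 counts in control (47.3 CPM, 23.6 to 84.6) and 7 in Flcn iΔEC (13.1 CPM, 5.26 to 26.9), a ratio of 0.276 (0.0908 to 0.781). Sinus LEC-like cells had 25 and 27 counts (41.2 and 19.2 CPM), a ratio of 0.466 (0.260 to 0.837) that was 0.511 without the highest cell of each library, and a UMI in 12 of 18 and 18 of 42 cells. The Fgl2-high and Aqp8-high clusters had 0 counts in control and 5 and 4 in Flcn iΔEC, and HEV-like cells had 11 and 33 (3.45 and 8.38 CPM). B cell-like cells had 6.44 and 3.97 CPM, with a UMI in 4.10% and 3.14% of cells, whereas no cell of the T cell-like cluster had 1.

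The chemokine system list held 64 genes, of which 63 had a row and 17 reached 50 CPM in at least 1 endothelial class of 1 library. Among endothelial classes, the 9 of these that are no members were all highest in sinus LEC-like or HEV-like cells. The neutrophil attractant Cxcl1 was at 46.1 and 95.1 CPM in sinus LEC-like cells (ratio 2.06, 1.37 to 3.22), and Cxcl10, an interferon-induced ligand, at 165 and 249 CPM (ratio 1.51, 1.21 to 1.91). Pf4 (platelet factor 4) was at 352 and 46.1 CPM in the same cells (ratio 0.131, 0.0977 to 0.174). Ptprc was at 109 and 53.2 CPM there, and the 7 LTi markers summed to 1419 and 620 CPM. The part of leukocyte RNA in these values was not tested. Gpr182, an atypical receptor like the Ackr members, was at 89.1 and 50.3 CPM in HEV-like cells (ratio 0.565, 0.468 to 0.679) and at 82.3 and 78.1 CPM in sinus LEC-like cells (ratio 0.949, 0.673 to 1.35), and Ccrl2 at 57.6 and 27.0 CPM in the latter (ratio 0.468, 0.288 to 0.763). Cxcl2 had 76 and 164 counts in sinus LEC-like cells (ratio 0.931, 0.705 to 1.24). Ccl5, Cxcl16 and Ccr6 reached at most 162, 59.3 and 62.8 CPM in an endothelial class. Several were higher outside the endothelium. Myeloid-like cells reached 553 CPM for Pf4, 1329 CPM for Cxcl2, 153 CPM for Ccrl2 and 87.1 CPM for Cxcl16. Ccl5 reached 2053 CPM in gamma-delta T and NK-like cells, and Ccr6 219 CPM in LTi-like cells. Cxcl1, Cxcl10 and Gpr182 were highest in an endothelial class. Ccl19, the other ligand of Ccr7, was at most 0.710 CPM in any endothelial class.

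The genes whose levels were most like those of a member were sought over 45 class and library profiles by Pearson's r of log2(CPM + 1), as a description, since the points share 2 libraries and differ in depth. They were Sh3gl3 (r = 0.896), Tbx1 and Fndc8 for Ccl21a, Lpar4 (r = 0.887), Igfbp3 and Lama3 for Cxcl12, and Creb3l2 (r = 0.877), Zfp521 and Mras for Ackr3. For Ackr4 they were Ltbp1 (r = 0.750), Parm1 and Gxylt2, and for Ackr1 Cyp1b1 (r = 0.733), Madcam1 and Nrg1. Ccl2 and Ccl7 were each other's nearest gene (r = 0.813). The genes nearest to Ccr7 included Cytip and Ptprc (r = 0.941), and those nearest to Cxcr4 were Ifi203 (r = 0.897), Lcp1 and Hcls1, so both receptors followed leukocyte genes over the profiles. Ackr2 was below the 50 CPM asked for.
Promoter windows of 7 members (250 bases before to 50 after the start, RefSeq, GRCm38.p6) were searched for CACGTG, the letters to which MiT/TFE factors, among the factors regulated through folliculin, can bind, and which reads alike on both strands. None of the 7 held it, against 7.15% of 32851 windows, which says only that these letters are not in those windows.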

How the data were processed

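Per the labels, CD31+ mesenteric cells were taken with Dynabeads, and libraries were made with Chromium Single Cell 3′ v3, sequenced on a HiSeq3000 and aligned with Cell Ranger 3.0, for which the submitters' notes name mm10; the annotation version is not given in the sources used here. The authors deposited raw UMI counts per gene and cell, with low-quality reads and PCR duplicates removed. All deposited cells were kept. Counts were clustered with Seurat 5.3.0 (R 4.3.3; 2000 variable features, anchor integration, 30 dimensions, resolution 0.8) without the chemokine system genes. An endothelial cluster had 6 or more of 8 pan-endothelial markers in 20% of its cells, and an endothelial cell had 2 or more Cdh5 UMIs. A class was named from 3 or more markers at 2-fold over the other cells with 10 or more counts, thresholds set after the clusters were seen. Counts were summed per class and library in Python 3.11.15 (scipy 1.17.1, pandas 2.3.3) and divided by the summed UMIs of the class (CPM). The interval code was tested on simulated counts.

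The control library had a median of 7283 UMIs per cell and the Flcn iΔEC library 8587. Scrublet (scanpy 1.11.5) called 142 and 37 doublets (2.084% and 0.83%), which were kept in the main values and left out in an alternative. The libraries shared 6 barcodes. Named were all members; for each member at 50 CPM or more in a class, the 3 genes most like it among genes at 50 CPM or more; chemokine system genes at 50 CPM or more in 1 endothelial class of 1 library; Ccl19 and the Ccl21 copies, added after their values were seen; markers; and Flcn, Cdh5 and Ptprc. The members and lists were chosen with earlier results of these data known. Alternatives were filters on cells, doublets, the Cdh5 minimum, integration, resolution, scaling, centring, count and fold thresholds and thinning depth.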

Additional observations from a re-analysis of the deposited data

Results flagged for a closer look

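Ccl2 differed in opposite directions between endothelial classes. It was higher in Flcn iΔEC in sinus LEC-like cells (ratio 8.95), in capillary-like cells (ratio 81.1) and in the Aqp8-high LEC-like cluster (13.2-fold with the control set to 3 counts, exact lower limit 10.7), and lower in the Fgl2-high cluster (ratio 0.290). In the first 3 of these, 219, 51 and 208 of the Flcn iΔEC counts lay in 1 cell each. In the Fgl2-high cluster the 35 control counts lay in 9 of 43 cells. Cxcr4 was higher in Flcn iΔEC in capillary-like cells (ratio 2.19) and lower in small AEC-like cells (ratio 0.478). With 1 library per group these differences between classes were not tested.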

How the results depend on the processing

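Of 266 ratios recomputed under the alternatives, 243 kept their direction and their side of the 2-fold threshold, and 100 of 126 levels and 17 of 40 shares stayed inside their intervals. The count of 14 member and class pairs past 2-fold was 23 with 20 summed counts, 5 at 4-fold and between 11 and 15 otherwise. Without integration the ratio of Cxcl12 in capillary-like cells was 1.13 and that of Ackr3 in HEV-like cells 0.317, the latter 0.316 without the Cdh5 minimum. Without that minimum Cxcr4 in capillary-like cells was at 1.10. Centring on the median of all genes gave 0.500 for Ackr2 in sinus LEC-like and 0.507 for Cxcr4 in small AEC-like cells, and resolution 1.6 gave 0.550 for the latter. Alternatives chosen after seeing the data were leaving out the highest cell of each library, which gave 0.511 for Ackr2 in sinus LEC-like cells, 1.96 for Cxcr4 in capillary-like cells and 0.464 for Ccl7 in LEC-like cells; keeping cells with no Ptprc UMI, which gave 0.502 for both Cxcl12 in capillary-like and Ackr3 in AEC-like cells, and 2.47 and 2.77 for Ccl21a and Ackr1 in HEV-like cells; and weighting the LEC-like clusters equally. The cause was not tested. Without integration the VEC-like class held 1 Flcn iΔEC cell and no small AEC-like class was named, and without the Cdh5 minimum neither small AEC-like nor sinus LEC-like cells were named, so these gave no value. The genes most like a member changed in 2 or more of 3 places for 5 of 9 members with 10 CPM added. No paired analysis was possible because each group is 1 pooled library. Few cells in a class limit the values, with 14 to 21 control cells in 3 of the lymphatic classes.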
